A study of Mus musculus with 6 samples.

Results

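The genes described here make, regulate and store sterols and fatty acids. They are 41 named genes of the 56941 gene IDs in the count table, chosen by symbol: 13 enzymes of the mevalonate and sterol pathway, 6 genes of sterol sensing and transport, 2 sterol efflux pumps, 4 genes of fatty acid synthesis, 8 desaturases and elongases, 3 acyl-CoA synthetases and 5 genes of triglyceride and lipid droplet formation. They were measured by RNA-seq in CD31+ cells, labelled as endothelial, taken from the lungs of mouse pups on postnatal day 7. One group of 3 libraries came from pups in room air (21% oxygen) and the other group of 3 from pups kept in hyperoxia (75% oxygen), with exposure begun on the day of birth. The cells were freed from minced lung by warm enzyme digestion and held on a magnetic column with anti-CD31 beads. The sources used here give neither strain nor sex, nor whether a library is 1 pup or a pool, so p-values measure only the spread between these libraries, which may be technical.

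Sterols and fatty acids are both built from acetyl-CoA in the cytosol. The transcription factors SREBP-1 and SREBP-2 switch on the enzymes. They are held in the endoplasmic reticulum by SCAP and the INSIG proteins while sterol is plentiful, and are released when it falls. Oxidised sterols act in the opposite direction through the LXR receptors, which raise sterol efflux and also the gene for SREBP-1. In the lung, alveolar type 2 cells use this machinery to make surfactant lipid, whereas endothelial cells take up much of their lipid from blood.

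Library totals ran from 39379793 to 42343192 counts, and every lipid gene was tested: the lowest single count was 133, for Dgat2. Reads of 4 Y-linked genes were present in the 3 room air libraries and hyperoxia 2 (5433 to 6361 counts) and nearly absent from hyperoxia 1 and 3 (2 and 0 counts). Room air 3 stood apart in Lars2, a gene whose reads can include ribosomal RNA, at 724 CPM against 58.7 to 116 CPM in the other 5 libraries. By the Y-linked reads, the sex of the pups was not balanced, and with Y-linked reads as a term the comparison rests on hyperoxia 2 alone against room air. The 14 pan-endothelial markers summed to 15819.8 to 22330.5 CPM in room air and 14904 to 20203 CPM in hyperoxia, lowest in room air 3 and hyperoxia 2, and 1 of them fell. Of their log2 fold changes, 11 were below 0 and 3 above (median -0.28). CPM here is the count scaled to library size by TMM, which applies 1 factor per library and does not correct for the mix of cell types. Of 9 alveolar type 1 markers, 8 rose, and their sum went from 2242 to 3190 CPM up to 5299 to 7026 CPM. The 10 alveolar type 2 markers summed to 12764 to 19993 CPM in room air and 14079 to 17113 CPM in hyperoxia, and 1 fell. Of 11 macrophage markers 2 rose and 1 fell (144 to 242 CPM against 207 to 284 CPM), and of 11 fibroblast markers 2 rose (1105 to 1457 CPM against 1506 to 2133 CPM). No marker of these 5 lists was at 0 in any library. The sums of 3 smaller lists also did not overlap between the groups. Airway epithelial markers summed to 309 to 564 CPM in room air and 715 to 1180.0 CPM in hyperoxia, where 1 of 6 rose (Sec14l3). Mesothelial markers summed to 49.2 to 66.8 and 123 to 174 CPM, where 1 of 4 rose (Msln). Of the 4 mesothelial log2 fold changes, 2 were above 0 and 2 below (median -0.46), so the sum does not describe each marker. Erythroid markers summed to 32.7 to 52.2 and 11.0 to 27.5 CPM, where 2 of the 6 tested fell, and Slc4a1 was at 0 in hyperoxia 3. In the lymphocyte, pericyte and smooth muscle, and neutrophil and monocyte lists, 0 markers passed. All 7 lymphocyte log2 fold changes were below 0 (median -0.34). Over all genes tested, 6.77% rose and 4.41% fell. Beside these shares, 1 or 2 calls in a short list do not show that a cell type changed. The part these cells play in the lipid gene results was not tested, and in bulk RNA fewer cells of a type and less RNA per cell cannot be told apart.

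**Figure D1:**
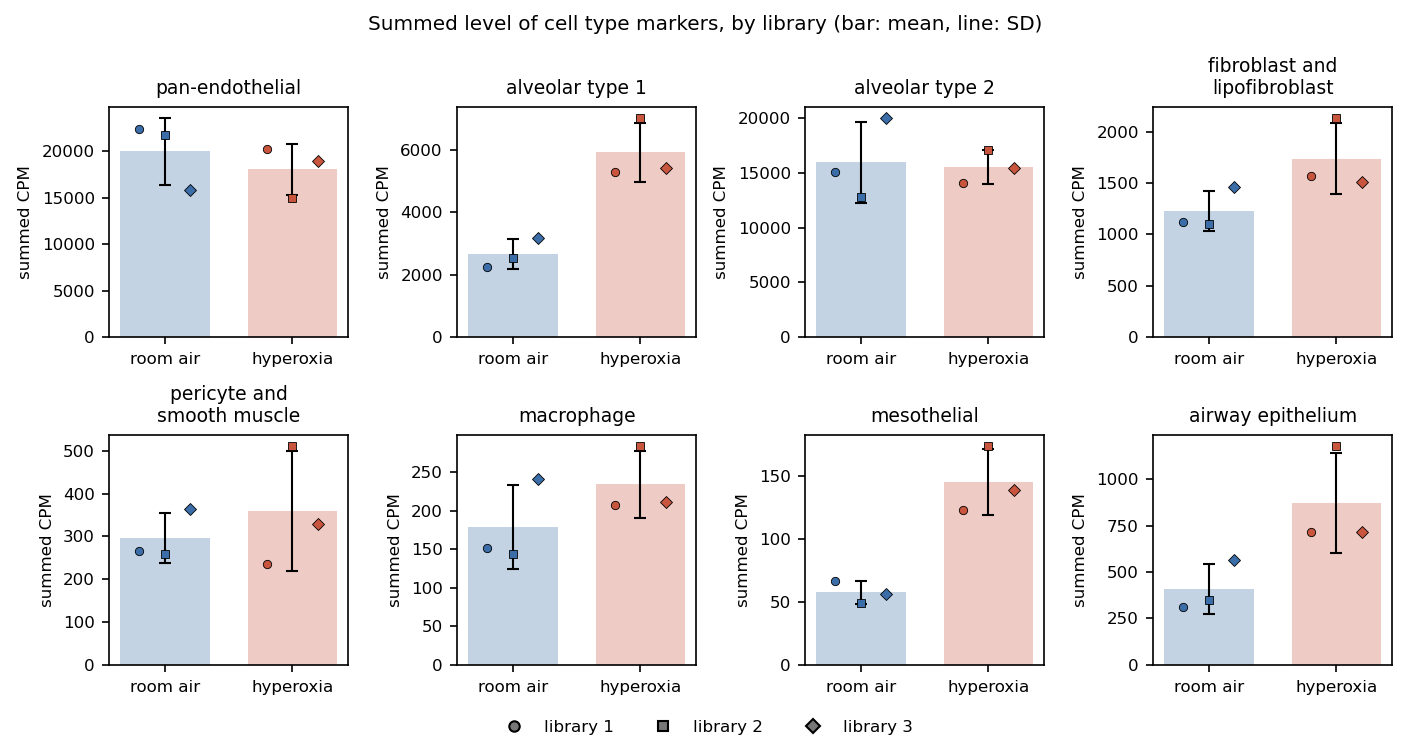
Summed CPM of marker lists (vertical axis, from 0) in the 3 room air and 3 hyperoxia libraries, with the mean as a bar and the SD as a line. The erythroid, lymphocyte, and neutrophil and monocyte lists are not plotted. The alveolar type 1, fibroblast, mesothelial and airway sums do not overlap between the groups. Hyperoxia 2 has the lowest endothelial sum (14904 CPM) and the highest alveolar type 1 sum (7026 CPM).

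In hyperoxia, 6 of the 41 lipid genes were higher and 2 lower by edgeR's quasi-likelihood test (adjusted p below 0.05 over the 17072 genes tested), and 33 did not pass. The higher genes were Fads3, Lpin1, Scd2, Abca1, Plin2 and Srebf1, and the lower were Stard4 and Hilpda. The share called was 19.5%, beside 11.2% of all genes tested (6.77% higher and 4.41% lower). The genes were chosen with earlier results of these data known, so this contrast is not a test of the list. The lipid genes' median log2 fold change was 0.040, beside -0.0093 over all genes, and 25 of the 41 were above 0. The groups did not overlap at 18 genes, of which 12 were above room air (29.3%, against 16.5% of all genes) and 6 below (14.6%, against 14.4%). By DESeq2 10 were called (8 higher and 2 lower), beside 1524 higher and 1242 lower over all genes, more than by edgeR (1156 and 753). By limma-voom 8 were called (6 higher and 2 lower), beside 1132 and 732 over all genes. Fads3, Lpin1, Scd2, Abca1 and Stard4 passed with any 1 library left out, whereas Srebf1, Plin2 and Hilpda did not. Without room air 2, hyperoxia 2 or hyperoxia 3, Hilpda was lost and 1 lower gene was left.

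**Figure D2:**
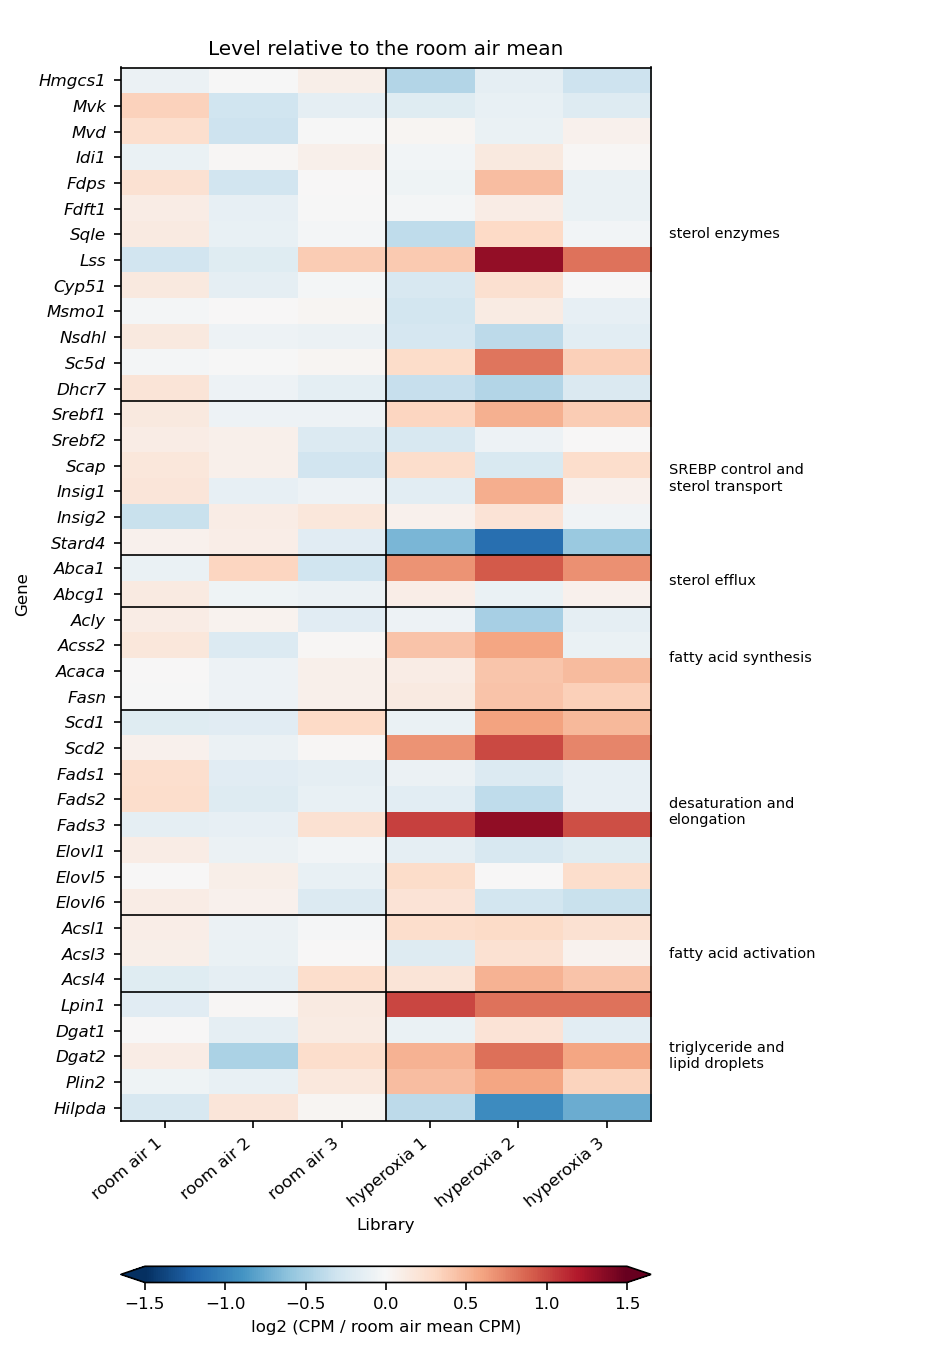
Each row is a gene, grouped by role, and each column a library; the colour is the log2 ratio of its CPM to the room air mean, red above and blue below. The rows of Fads3, Scd2, Lpin1 and Abca1 are red in all 3 hyperoxia libraries, Stard4 and Hilpda are blue, and most sterol enzyme rows are pale.

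Of the 13 sterol enzymes listed, 0 passed edgeR's test, 4 had an unadjusted p below 0.05, DESeq2 called 2 (Lss and Sc5d) and limma-voom 0. The share of all genes at this unadjusted cut is not given, here or for the lists below. Such counts therefore do not show that a list stands out. Between -0.33 and 0.89 on the log2 scale, 6 fold changes were above 0 and 7 below (median -0.0065). Hmgcs1, the synthase that makes HMG-CoA for the pathway, was at 65.7, 69.6 and 74.5 CPM in room air libraries 1, 2 and 3 and at 51.7, 63.5 and 56.6 CPM in hyperoxia 1, 2 and 3. All hyperoxia libraries lay below room air, but the difference did not pass (log2 fold change -0.29, 95% interval -0.53 to -0.042, adjusted p = 0.131). The next enzymes of the mevalonate branch, the kinase Mvk (-0.16), the decarboxylase Mvd (0.00070), the isomerase Idi1 (0.040) and the farnesyl diphosphate synthase Fdps (0.12), had overlapping groups. Their 95% intervals reached from -0.53 to 0.52.

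Among the enzymes that build and trim the sterol ring, Lss and Sc5d stood highest. Lss, the cyclase that folds squalene epoxide into lanosterol, was at 7.09, 7.63 and 11.3 CPM in room air, against 11.4, 21.6 and 15.3 CPM in the hyperoxia libraries. The groups nearly touched, at room air 3 and hyperoxia 1, and Lss missed the threshold (log2 fold change 0.89, 95% interval 0.32 to 1.46, adjusted p = 0.0501). It passed in 8 of the 18 alternatives, 1 of them the main fit read at a threshold of 0.1, and its adjusted p reached 0.17 over the fits. Among those it passed were without room air 3 (0.0193), the library with high Lars2, without hyperoxia 1 (0.025) and by DESeq2 (0.00924). With Y-linked reads as a term, which compares hyperoxia 2 alone with room air, the log2 fold change of Lss was 1.31. Sc5d, a desaturase of the late pathway, was at 21.9, 22.3 and 23.0 CPM in room air, against 27.1, 39.2 and 28.7 CPM in the hyperoxia libraries, with every hyperoxia library above room air (log2 fold change 0.50, 95% interval 0.16 to 0.83, adjusted p = 0.061). It passed in 4 of the 18 alternatives, among them DESeq2 (0.0328) and the main fit read at a threshold of 0.1. Its adjusted p reached 0.204 over the fits. With Y-linked reads as a term, which rests on hyperoxia 2 alone, the log2 fold change of Sc5d was 0.81. Dhcr7, which makes cholesterol in the final reduction of one branch, was lower in all hyperoxia libraries (log2 fold change -0.33, 95% interval -0.62 to -0.046, adjusted p = 0.135), and so was the X-linked dehydrogenase Nsdhl (-0.26, 95% interval -0.57 to 0.049). The squalene synthase Fdft1 (-0.0065), the squalene epoxidase Sqle (-0.015), the demethylase Cyp51 (0.014) and the methyl sterol oxidase Msmo1 (-0.082) had overlapping groups. Within hyperoxia, library 2 was the highest at 10 of the 13 sterol enzymes, with a median log2 ratio to the room air mean of 0.12, beside -0.18 in hyperoxia 1 and -0.10 in hyperoxia 3. Room air 1, 2 and 3 stood at 0.13, -0.11 and -0.0030 on this scale, so the hyperoxia libraries spread about as widely as the room air ones. Hyperoxia 2 also had the highest alveolar type 1, fibroblast, pericyte and smooth muscle, macrophage, mesothelial and airway marker sums of all libraries. Its endothelial sum was the lowest, and the part of these cells was not tested.

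The best known element for SREBP in a sterol gene is the SRE, and its core letters TCACNCCAC were searched on both strands in the RefSeq promoter windows (GRCm38.p6, 250 bases before a start to 50 after it), which matched 31 of the 41 lipid genes with 41 windows. Windows of Hmgcs1 and of Acsl1 held it (2 of 41, 4.88%), against 1.24% of all 32851 windows. CCAAT, the letters bound by NF-Y, which works beside SREBP, was in a window of each of the 10 sterol enzymes matched and in 58.5% of all windows of the lipid genes, against 37.4% of all windows. GGGCGG, the letters bound by Sp1, was in 78.0% against 35.7%. A match is a description of the letters and not evidence of binding. The bases before the Hmgcs1 start are shown as the sterol enzyme window that holds the SRE core and CCAAT together (chr13:119690101-119690350, plus strand). An Acsl1 window holds both as well and is not printed. Capitals mark the SRE core and CCAAT, or its reverse complement:
Hmgcs1: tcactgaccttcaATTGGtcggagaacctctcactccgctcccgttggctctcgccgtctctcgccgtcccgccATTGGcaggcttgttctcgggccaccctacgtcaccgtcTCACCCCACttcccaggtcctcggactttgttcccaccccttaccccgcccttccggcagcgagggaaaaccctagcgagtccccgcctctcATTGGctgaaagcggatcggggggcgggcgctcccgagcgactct

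The sterol sensing genes mostly had overlapping groups, and 2 of the 6 passed, in opposite directions. Srebf1, the gene for SREBP-1, was at 135, 116 and 116 CPM in room air, against 152, 178 and 160 CPM in the hyperoxia libraries, so that the groups did not overlap. It rose 1.33-fold, with group means of 122 ± 11.0 and 163 ± 12.96 CPM (± SD over n = 3 libraries each; log2 fold change 0.42, SE 0.11, edgeR adjusted p = 0.0395). Leaving out room air 2 (0.132) or 3 (0.0788), or any hyperoxia library (0.0683, 0.123 and 0.119 for 1, 2 and 3), ended the call. Srebf2, the gene for the more sterol-directed SREBP-2, had means of 237 ± 27.8 and 222 ± 18.6 CPM in room air and hyperoxia (log2 fold change -0.099, 95% interval -0.38 to 0.18). The escort gene Scap (0.12), and the retention genes Insig1 (0.18) and Insig2 (0.076), did not pass. Insig1, itself induced by SREBP, was at 70.3, 57.1 and 58.9 CPM in room air, against 55.4, 90.6 and 65.1 CPM in the hyperoxia libraries, where library 2 alone was above all the room air libraries. It passed with Y-linked reads as a term, which compares that library with room air (log2 fold change 0.55, adjusted p = 0.0471).

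Stard4 carries cholesterol between membranes inside the cell and is known as an SREBP target. It fell from 147, 151 and 125 CPM in room air to 87.2, 64.5 and 95.5 CPM in hyperoxia. Every hyperoxia library lay below every room air library, with hyperoxia 2 the lowest. The fall was 1.71-fold, from 141 ± 13.7 to 82.4 ± 16.1 CPM (log2 fold change -0.77, SE 0.15, edgeR adjusted p = 0.00783), and leaving out 1 library gave adjusted p from 0.00481 to 0.0373.

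Of the efflux pumps, Abca1 rose and Abcg1 did not pass. Abca1 hands cholesterol to lipid-poor apolipoprotein and was at 69.98, 94.4 and 61.4 CPM in room air, against 119.8, 142 and 121 CPM in the hyperoxia libraries. Its groups did not overlap (75.3 ± 17.1 against 128 ± 12.5 CPM, 1.7-fold; log2 fold change 0.76, SE 0.16, edgeR adjusted p = 0.0106), and with 1 library left out the adjusted p ran from 0.00459 to 0.0488. Abcg1, which passes cholesterol to HDL and is another LXR target, was at 149 ± 13.1 and 152 ± 10.7 CPM, with a log2 fold change of 0.024 (95% interval -0.22 to 0.27). Macrophages express both pumps, and among macrophage markers Marco rose (log2 fold change 2.22, adjusted p = 0.00632) and Chil3 fell (-1.94, 0.00806). Cd68, chosen after its values were seen, rose too (0.87, 0.0273). The Marco call was lost with no filter on low counts (0.132), and that of Chil3 without hyperoxia 2 (0.0529) and with Y-linked reads as a term (0.0895). The Cd68 call was lost without room air 1 (0.0738) or 2 (0.11) and without hyperoxia 1 (0.0621) or 2 (0.0879). The part of these cells was not tested.

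LXR binds a pair of spaced half-sites, and the letters GGTNA and GGTCA with NNNNN between them were written to cover the element known at Abca1, so the match there was built in. On both strands, 4 of the 41 windows of the lipid genes held these letters (9.76%, at Abca1, Srebf1, Fasn and Acsl3), against 68 of all 32851 windows (0.207%). That share includes the built-in match, and the genes were chosen by name for these pathways. The contrast is therefore not a test of enrichment, and a match is not evidence of binding. Of the 4 genes, Abca1 and Srebf1 rose, whereas Fasn and Acsl3 did not pass. The 250 bases before each start are printed because the same letters stand in genes of efflux, regulation, synthesis and activation. Capitals mark the match, which lies on the opposite strand and so reads as its reverse complement. Counted from the start, it begins at -67 in Abca1 (chr4:53159896-53160145, minus strand), -182 in Srebf1 (chr11:60210472-60210721, minus strand, 1 of 3 starts), -225 in Fasn (chr11:120824548-120824797, minus strand) and -112 in Acsl3 (chr1:78657575-78657824, plus strand):
Abca1: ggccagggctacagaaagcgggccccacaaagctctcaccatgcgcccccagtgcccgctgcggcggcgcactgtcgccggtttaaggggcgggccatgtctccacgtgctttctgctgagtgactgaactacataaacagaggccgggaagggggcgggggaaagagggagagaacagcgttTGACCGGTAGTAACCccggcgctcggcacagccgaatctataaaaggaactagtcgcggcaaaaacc
Srebf1: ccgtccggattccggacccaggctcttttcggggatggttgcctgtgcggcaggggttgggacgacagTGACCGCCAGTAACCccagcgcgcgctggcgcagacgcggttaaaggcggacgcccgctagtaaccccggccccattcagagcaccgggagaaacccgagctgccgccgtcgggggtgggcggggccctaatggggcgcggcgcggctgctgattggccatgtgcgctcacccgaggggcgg
Fasn: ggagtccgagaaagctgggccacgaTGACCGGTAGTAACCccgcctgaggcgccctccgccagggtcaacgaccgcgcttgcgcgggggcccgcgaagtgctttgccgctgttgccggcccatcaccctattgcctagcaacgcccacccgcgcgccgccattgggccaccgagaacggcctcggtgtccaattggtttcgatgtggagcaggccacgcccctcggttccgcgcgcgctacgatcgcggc
Acsl3: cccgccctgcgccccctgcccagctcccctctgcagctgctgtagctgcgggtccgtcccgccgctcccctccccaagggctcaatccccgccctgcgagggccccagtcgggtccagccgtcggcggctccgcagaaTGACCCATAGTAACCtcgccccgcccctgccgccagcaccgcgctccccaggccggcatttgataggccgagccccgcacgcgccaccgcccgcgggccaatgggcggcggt

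None of the 4 fatty acid synthesis genes passed edgeR's test; 2 had an unadjusted p below 0.05, and DESeq2 and limma-voom called 0. Fasn, the fatty acid synthase, was at 294, 279 and 311 CPM in room air, against 325, 396 and 377 CPM in the hyperoxia libraries. The groups did not overlap, but the difference was small (log2 fold change 0.31, 95% interval 0.047 to 0.58, adjusted p = 0.13). Acaca, the carboxylase that commits acetyl-CoA to fatty acids, had hyperoxia above room air in every library (log2 fold change 0.34, 95% interval 0.070 to 0.61, adjusted p = 0.107). Acly, which frees acetyl-CoA from citrate, was at 289 ± 29.5 and 247 ± 37.5 CPM (log2 fold change -0.23, 95% interval -0.54 to 0.082). Acss2, which makes acetyl-CoA from acetate, was the lowest lipid gene per exon length in both groups, at 0.727 and 0.919 CPM per kb.

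The largest change among the genes that passed was in a desaturase. Fads3, a member of the front-end desaturase family, was at 68.0, 68.1 and 87.2 CPM in room air, against 152, 187 and 146 CPM in the hyperoxia libraries. The lowest hyperoxia library was well above the highest room air library. Fads3 rose 2.17-fold, from 74.4 ± 11.1 to 161 ± 22.3 CPM (log2 fold change 1.12, SE 0.14, edgeR adjusted p = 0.000887), and adjusted p ran from 0.000287 to 0.0068 with 1 library left out. Its neighbours in the same gene cluster, Fads1 and Fads2, which desaturate polyunsaturated fatty acids, did not pass (log2 fold changes -0.14, 95% interval -0.42 to 0.15, and -0.22, 95% interval -0.51 to 0.081). Within each library, the ratio of Fads3 to Fads1 per exon length was 0.464, 0.622 and 0.779 in room air and 1.31, 1.75 and 1.30 in hyperoxia. The ratio is free of scaling between libraries, and it did not overlap between the groups; this pair and the others plotted were chosen after their values were seen, so no test is given.

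Scd2, a stearoyl-CoA desaturase that makes monounsaturated fatty acids, was at 670.5, 605 and 648 CPM in room air, against 1020.1, 1273 and 1065 CPM in the hyperoxia libraries. It rose 1.75-fold (641 ± 33.5 to 1119.6 ± 135 CPM; log2 fold change 0.80, SE 0.14, edgeR adjusted p = 0.00405), and leaving out 1 library gave adjusted p from 0.00505 to 0.0228. Scd1, its close relative, was at 470.1, 471 and 653 CPM in room air, against 494, 809 and 746 CPM in the hyperoxia libraries. Room air 3 lay above hyperoxia 1, and Scd1 did not pass (log2 fold change 0.36, 95% interval -0.078 to 0.80, adjusted p = 0.295). The ratio of Scd2 to Scd1 per exon length was 1.28, 1.15 and 0.889 in room air and 1.85, 1.41 and 1.28 in hyperoxia, so the groups met at room air 1 and hyperoxia 3. Per exon length these were the most abundant of the 41 genes in room air, at 117 CPM per kb for Scd2 and 109 CPM per kb for Scd1, and did not differ there beyond their spread. The elongases Elovl1 (-0.18, 95% interval -0.42 to 0.054, lower in every hyperoxia library), Elovl5 (0.19, 95% interval -0.086 to 0.46) and Elovl6 (-0.11, 95% interval -0.60 to 0.38), which lengthen fatty acids, did not pass.

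**Figure D3:**
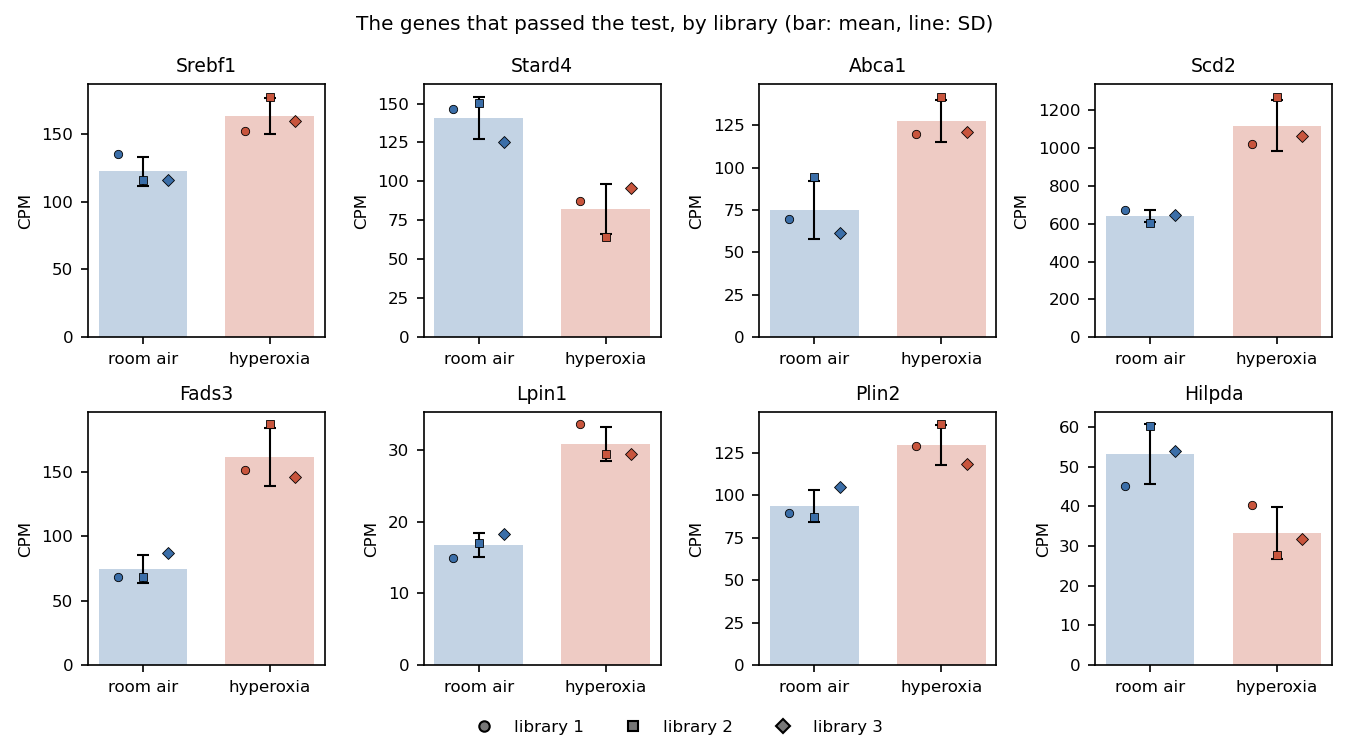
CPM of the 8 genes that passed the test (vertical axes, from 0) in each library, with the group mean as a bar and the SD as a line. The groups do not overlap at any of the 8; hyperoxia 2 is the highest library for Srebf1, Abca1, Scd2, Fads3 and Plin2 and the lowest for Stard4 and Hilpda.

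**Figure D4:**
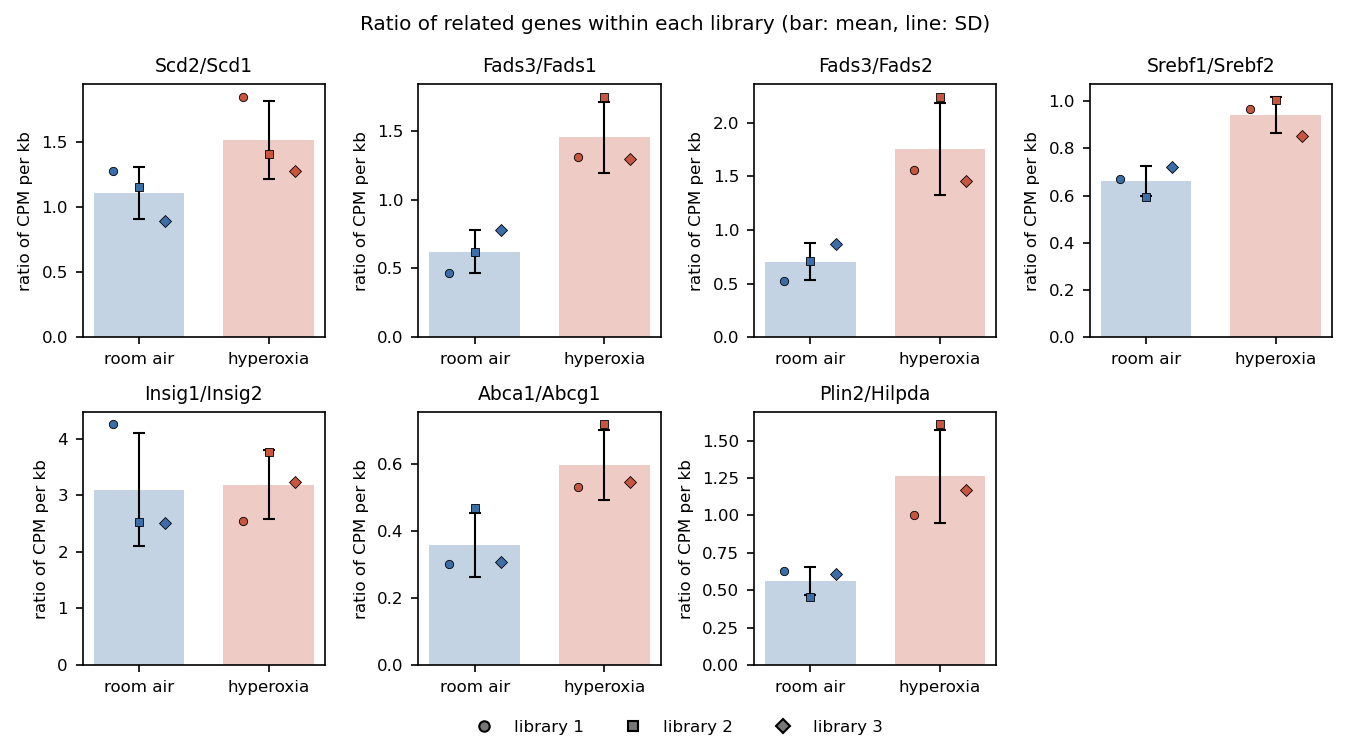
Ratio of related genes within each library, as CPM per kb of exon (vertical axes, from 0), with the mean as a bar and the SD as a line. The ratios of Fads3 to Fads1 and Fads2, Srebf1 to Srebf2, Abca1 to Abcg1 and Plin2 to Hilpda are higher in every hyperoxia library, whereas Insig1 to Insig2 overlaps.

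Of the 3 Acsl genes, which activate fatty acids to acyl-CoA, 0 passed edgeR's test, 2 had an unadjusted p below 0.05, and DESeq2 and limma-voom called 0. Acsl1 was at 27.7 ± 1.85 and 33.1 ± 0.657 CPM (log2 fold change 0.26, 95% interval 0.011 to 0.51, adjusted p = 0.18), with all hyperoxia libraries above room air. Acsl4, which prefers arachidonic acid and is X-linked, had a log2 fold change of 0.39 (95% interval 0.079 to 0.70, adjusted p = 0.108) and passed without room air 3 (0.0203), the library with high Lars2, whose part was not tested. Acsl3, of the lipid droplet surface, had a log2 fold change of 0.038 (95% interval -0.30 to 0.37).

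Triglyceride and droplet genes went both ways: of 5, 2 rose, 1 fell and 2 did not pass. Lpin1, the phosphatase that makes the diacylglycerol used for triglyceride, was at 14.9, 17.01 and 18.4 CPM in room air, against 33.7, 29.5 and 29.5 CPM in the hyperoxia libraries. The 3 hyperoxia libraries lay close together and far above room air. Lpin1 rose 1.84-fold (log2 fold change 0.88, SE 0.13, edgeR adjusted p = 0.00243), and adjusted p was 0.0027 to 0.0123 with 1 library left out. Plin2, the main droplet coat protein outside fat tissue, was at 89.9, 87.2 and 104.6 CPM in room air, against 129, 142 and 118 CPM in the hyperoxia libraries. It rose 1.38-fold (log2 fold change 0.47, SE 0.12, edgeR adjusted p = 0.0266). The Plin2 call, but not its direction, was lost without room air 1 (0.09) or 2 (0.101) or without hyperoxia 1 (0.0727), 2 (0.0825) or 3 (0.0533). Hilpda, a hypoxia-induced inhibitor of the droplet lipase ATGL, was at 45.2, 60.2 and 54.1 CPM in room air, against 40.4, 27.7 and 31.8 CPM in the hyperoxia libraries. It fell 1.6-fold (log2 fold change -0.67, SE 0.16, edgeR adjusted p = 0.0204). The Hilpda call, but not its direction, was lost without room air 2 (0.0885), hyperoxia 2 (0.0537) or hyperoxia 3 (0.0742). Plin2 and Hilpda thus moved in opposite directions: their ratio per exon length was 0.563 ± 0.0936 in room air and 1.26 ± 0.313 in hyperoxia (mean ± SD, n = 3 per group). For the enzymes of the last step of triglyceride synthesis, Dgat1 had a log2 fold change of -0.0061 (95% interval -0.32 to 0.30) and Dgat2 of 0.65 (95% interval 0.12 to 1.18, adjusted p = 0.117), the latter at 4.7 ± 1.16 and 7.37 ± 0.842 CPM.

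**Figure D5:**
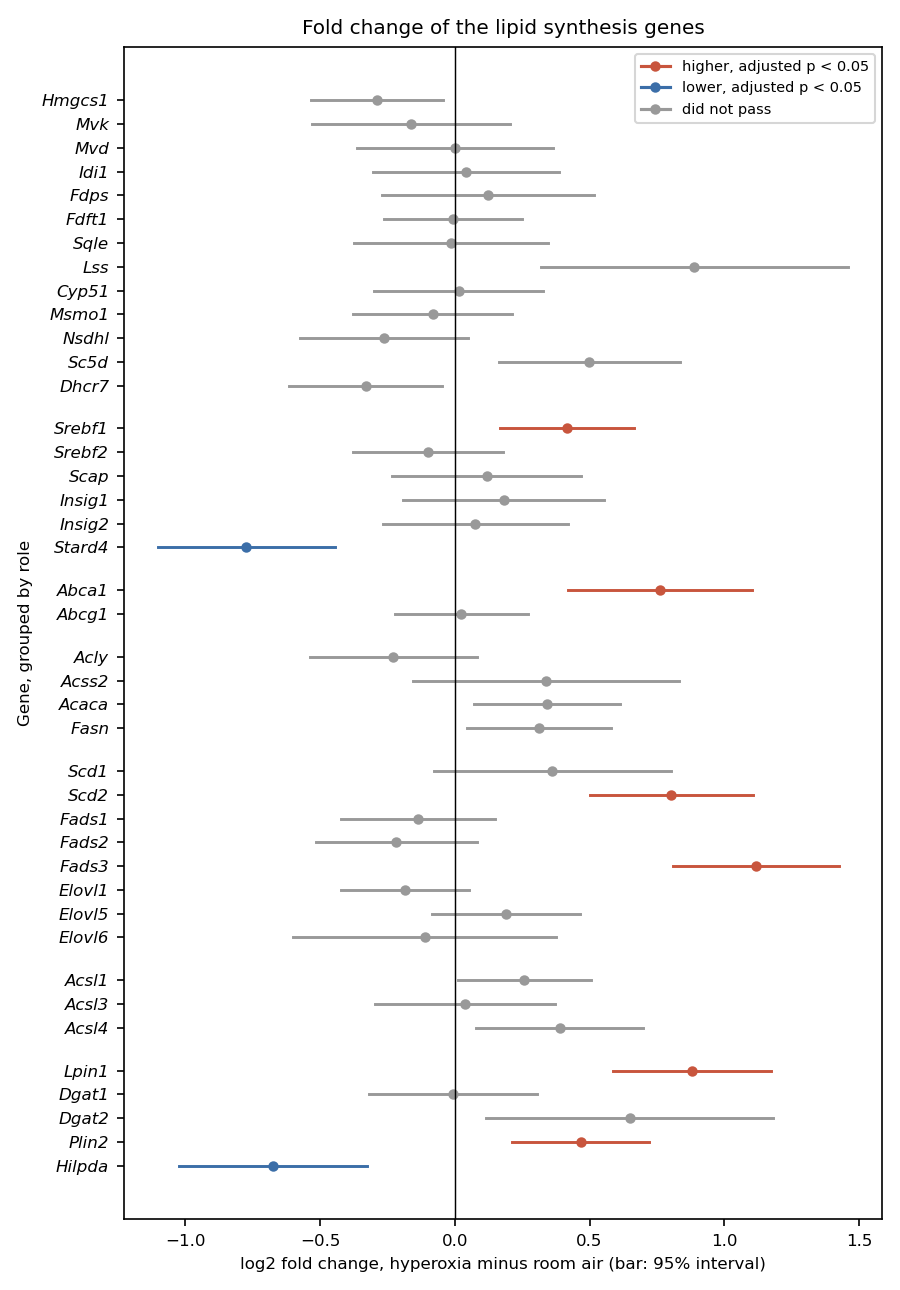
Log2 fold change of each gene (horizontal axis, hyperoxia minus room air) with its 95% interval, grouped by role; red passed the test as higher, blue as lower, grey did not pass. Fads3 lies farthest to the right (1.12) and Stard4 farthest to the left (-0.77), while the grey intervals of 9 genes, Lss and Sc5d among them, exclude 0 without an adjusted p below 0.05. The share of all genes with such an interval is not given.

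Wider lists of the same pathways held 79 further genes, of which 74 were tested. Of these, 15 rose, 4 fell and 55 did not pass (25.7% called, beside 11.2% of all genes). These lists too were chosen with earlier results of these data known, so their shares beside all genes are not a test. With room air 1, room air 2, hyperoxia 2 or hyperoxia 3 left out, 9, 8, 9 and 9 rose, and with room air 1 left out 2 fell. In sterol synthesis, uptake and release, 4 of 17 rose and 1 fell (29.4% called, beside the same 11.2%). Nceh1, which frees cholesterol from stored esters, rose from 42.7 ± 4.67 to 86.0 ± 9.16 CPM (log2 fold change 1.01, edgeR adjusted p = 0.00079). The late endosomal cholesterol transporters Npc2 (log2 fold change 0.72, adjusted p = 0.0134) and Npc1 (0.70, 0.005) rose together. The lysosomal acid lipase gene Lipa was at 80.7 ± 3.35 and 109 ± 17.3 CPM (0.44, 0.045). Lbr, a nuclear envelope protein that is also a sterol reductase, fell (-0.54, 0.0144). Npc2 was lost without room air 1 (0.0588) or 2 (0.0636), Lbr without room air 1 (0.053) or hyperoxia 2 (0.0524), and Lipa with any 1 library left out (0.0571 to 0.139).

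Of 16 regulators of SREBP and LXR, 2 rose and 14 did not pass (12.5% called, near the 11.2% of all genes). Mylip, an LXR-induced ubiquitin ligase that removes lipoprotein receptors, was at 39.0, 51.1 and 37.1 CPM in room air, against 94.0, 69.0 and 87.6 CPM in the hyperoxia libraries (log2 fold change 0.98, SE 0.15, edgeR adjusted p = 0.00284). Its groups did not overlap, and it passed with any 1 library left out (0.00109 to 0.0169). Apoe, an apolipoprotein gene that macrophages express strongly, rose (log2 fold change 0.61, adjusted p = 0.039), but it passed with 1 library left out only for room air 3 (0.0155 to 0.107 over the 6). The LXR genes themselves, Nr1h2 (0.017) and Nr1h3 (-0.036), chosen after their values were seen, did not pass.

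Around fatty acid synthesis, 4 of 22 genes tested rose and 1 fell (22.7% called, beside 11.2% of all genes). Me1, the malic enzyme that supplies NADPH and is also a known NRF2 target, was at 28.7, 27.4 and 41.9 CPM in room air, against 67.1, 107 and 86.2 CPM in the hyperoxia libraries (log2 fold change 1.41, SE 0.20, edgeR adjusted p = 0.0016). The acyl-CoA thioesterase genes Acot1 (0.87, adjusted p = 0.00299) and Acot2 (0.73, 0.00997), near-identical copies whose reads may have been shared, rose too. Elovl4 was at 0.851 ± 0.0786 and 2.24 ± 0.54 CPM (1.395, 0.0391), lost with any 1 library left out (0.0754 to 0.128). Acsf2, an acyl-CoA synthetase family member of mitochondria, fell (-0.80, 0.00618). In glycerolipid synthesis and droplet turnover, 5 of 19 tested rose and 2 fell (36.8% called, beside the same 11.2%). Agpat2 rose (0.89, 0.00572) while Agpat1 fell (-0.68, 0.00867), both acyltransferases of the same step. Lpin2, the relative of Lpin1, rose (0.70, 0.00884). Gpam (0.51, 0.0392), Fitm2 (0.48, 0.0363) and Lipe (-0.66, 0.049) reached at most an adjusted p of 0.132, 0.124 and 0.189 with 1 library left out, and passed in 2, 1 and 1 of the 6 such fits.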

How the data were processed

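Per the submitters' processing notes, the tools were DESeq2, HISAT2 2.2.1, Subread 2.0.6 and featureCounts, and the build named is GRCm39; what each did is not said. The deposited values are raw counts per Ensembl gene ID made by the authors. Annotation release, strand setting and the handling of multimapping reads were not given in the sources used here, so paralogs and overlapping genes are uncertain; over 10% of exonic bases overlap another gene at Hmgcs1, Fdps, Fdft1 and Scap in GENCODE M21. That annotation (GRCm38) gave symbols (51948 IDs matched) and exon lengths only.

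Computation used DESeq2 1.42.0, limma 3.58.1 and edgeR 4.0.16 in R 4.3.3. After filterByExpr (minimum count 10, minimum total 15) and TMM scaling, the groups were tested with edgeR's quasi-likelihood method (robust) on all 6 libraries with no covariate, adjusted by Benjamini and Hochberg over 17072 genes. An adjusted p with no tool named comes from edgeR. Standard errors are the log2 fold change over the root of its F statistic, and 95% intervals follow from them, unadjusted. The fit was tested on simulated counts. Counts of same-group libraries differed beyond sampling noise (lowest chi-square over its degrees of freedom 14.1), so each was counted once.

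The genes and lists were chosen with earlier results of these data known. All 41 lipid genes could be named; of each wider list, up to 4 called genes per direction by size of change; of markers, up to 2 called genes per list. Alternatives were other scalings, filters, tests and thresholds, a replicate block, a Y-linked term and each library left out; leaving out hyperoxia 2 with room air 3 was chosen after seeing the data.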

Additional observations from a re-analysis of the deposited data

How the results depend on the processing

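Over 18 alternatives, 2 of them the main fit at another threshold with its direction fixed, the direction of all 8 called lipid genes held. Fads3, Lpin1, Scd2 and Stard4 passed in all of them; Abca1 failed at a threshold of 0.01 alone, Srebf1 passed in 10, Plin2 in 11 and Hilpda in 12. The higher lipid genes numbered 3 at a threshold of 0.01, and the lower 1 at 0.01, with the replicate block, and in the fit lacking both hyperoxia 2 and room air 3. With 1 library left out they numbered 4 to 7 and 1 to 2. Over all genes, 681 to 1095 were higher and 376 to 749 lower with 1 library left out (754, 681 and 713 higher without room air 1, room air 2 and hyperoxia 3; 376, 487, 496 and 430 lower without room air 2 and hyperoxia 1, 2 and 3). At 0.01, 556 were higher and 233 lower, beside 1156 and 753; the lower numbered 1235 at 0.1, 1243 with no filter, 1242 by DESeq2 and 1223 with Y-linked reads as a term. The cause of these shifts was not tested. The replicate numbers do not pair the samples (correlations of deviations 0.11, -0.039 and -0.090; 2 of 6 libraries correlated best with their own number); with the replicate block Srebf1 (0.0966), Plin2 (0.0727) and Hilpda (0.0526) did not pass. The wider lower genes numbered 7 with Y-linked reads as a term. Every lipid gene had at least 133 counts in each library; the number of libraries, 3 per group, limits precision.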
